A study of Mus musculus with 9 samples.

Results

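The regions described here are the 2052 stretches of mouse chromosome 9 that were listed as enriched after capture with probes for the long noncoding RNA Gm4665, leaving out the single interval that covers the Gm4665 gene itself. They were chosen by position alone from 38827 intervals in the whole Gm4665 list, with rows that repeat an interval joined. Chromatin came from testicular germ cells of wild-type mice of ICR, an outbred strain, taken on postnatal day 35. It was cross-linked and sonicated, and captured with biotinylated probes against Gm4665 (3 replicates) or against the bacterial gene LacZ, which has no mouse counterpart (3 replicates), with input DNA (3 replicates) as the denominator of each fold. The sample titles call the captured RNA LncRNA-20, and the labels' protocols for the same samples call it Gm4665. Whether the replicates are different animals is not stated, and their spread may therefore be technical. The purity of the germ cells could not be checked against marker genes, because the lists hold DNA intervals and no expression values.

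A long noncoding RNA can act on chromatin in cis, close to the gene that makes it, or in trans, on other chromosomes. RNAs such as Xist, Kcnq1ot1 and Airn are known for acting along the chromosome they are transcribed from, while others bind sites across the genome. In hybridization capture, probes that tile an RNA pull down the DNA cross-linked to it, and they can also anneal to the DNA of the gene, so the gene's own interval is set apart. The comparison made here is whether intervals on chromosome 9 were more numerous or more enriched than elsewhere, and whether either measure depended on distance from the gene, with the LacZ list measured the same way beside it.

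Gm4665 (a lncRNA gene in RefSeq) lies at chr9:115178427-115186101 in mm10, inside an annotated protein-coding gene, Osbpl10 (oxysterol-binding protein family). It stands near the far end of the chromosome: 112 Mb of assembled sequence lie before it and 9.29 Mb after it. Its own interval was 26100 bp wide, with folds of 128.5, 101.1 and 119.7 in replicates 1, 2 and 3. It was left out of the values that follow, except for the gaps between neighbouring intervals and where it is named. Fold is the authors' enrichment over input, per the file headers.

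Sequence is shown first for the few chromosome 9 genes at which an interval covered the whole start of the gene. Whether such an interval belongs to that gene or to a neighbour was not tested. RefSeq promoter windows hold 300 bases, 250 before to 50 after the start. Of 1917 such windows on chromosome 9, from 1564 genes, 12 lay wholly inside a Gm4665 interval, 7 of them of protein-coding genes, and 8 lay wholly inside a LacZ interval. The 5 protein-coding genes with the highest folds follow, each read 5′ to 3′ on the gene's strand, with capitals marking GGGCGG (the GC box motif) on either strand. They are Gm5916 (chr9:36128730-36129029), Inka1 (chr9:107985867-107986166), Cck (chr9:121495645-121495944), Csrnp1 (chr9:119982974-119983273) and Ccdc15 (chr9:37348308-37348607), all on the minus strand, in GRCm38.p6, the build called mm10.
Gm5916: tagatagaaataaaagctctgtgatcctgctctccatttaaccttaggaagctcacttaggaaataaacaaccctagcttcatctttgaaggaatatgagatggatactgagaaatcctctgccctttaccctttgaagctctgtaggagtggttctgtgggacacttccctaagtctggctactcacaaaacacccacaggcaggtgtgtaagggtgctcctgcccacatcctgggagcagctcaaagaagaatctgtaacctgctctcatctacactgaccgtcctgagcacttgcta
Inka1: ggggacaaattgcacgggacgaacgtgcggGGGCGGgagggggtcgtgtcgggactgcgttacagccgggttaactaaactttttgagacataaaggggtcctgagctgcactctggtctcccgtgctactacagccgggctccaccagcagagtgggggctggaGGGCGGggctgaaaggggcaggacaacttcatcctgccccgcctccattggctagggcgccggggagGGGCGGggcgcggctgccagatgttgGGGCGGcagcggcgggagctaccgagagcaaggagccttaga
Cck: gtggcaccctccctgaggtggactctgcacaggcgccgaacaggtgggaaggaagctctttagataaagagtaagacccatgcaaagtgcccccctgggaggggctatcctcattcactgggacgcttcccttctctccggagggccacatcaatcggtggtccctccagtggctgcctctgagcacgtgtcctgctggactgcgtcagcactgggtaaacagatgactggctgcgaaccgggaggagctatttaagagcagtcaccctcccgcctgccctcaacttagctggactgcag
Csrnp1: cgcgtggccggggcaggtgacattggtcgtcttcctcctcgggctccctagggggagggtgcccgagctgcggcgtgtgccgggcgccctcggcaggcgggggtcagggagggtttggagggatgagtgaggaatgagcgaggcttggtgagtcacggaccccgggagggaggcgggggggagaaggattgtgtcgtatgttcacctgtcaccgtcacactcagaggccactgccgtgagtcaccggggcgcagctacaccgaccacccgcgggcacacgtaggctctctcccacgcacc
Ccdc15: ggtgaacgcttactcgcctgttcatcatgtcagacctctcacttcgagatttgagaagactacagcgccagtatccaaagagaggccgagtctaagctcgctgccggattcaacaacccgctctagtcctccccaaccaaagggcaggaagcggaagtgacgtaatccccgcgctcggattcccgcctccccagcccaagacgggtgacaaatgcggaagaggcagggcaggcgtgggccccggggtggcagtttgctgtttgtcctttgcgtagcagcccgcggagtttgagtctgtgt

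Inka1, which encodes an inhibitor of the kinase PAK4, had folds of 37.3, 37.1 and 41.8 in the 3 Gm4665 replicates, and lies 7.19 Mb from Gm4665. Cck encodes the peptide hormone cholecystokinin; its interval had folds of 44.7, 26.7 and 30.8 and lies 6.31 Mb away. Csrnp1, a gene for a nuclear transcription factor, had 30.6, 21.7 and 25.7 at 4.80 Mb. Gm5916, a predicted protein-coding gene, had 47.1, 27.6 and 48.9 at 79.0 Mb, and Ccdc15, a coiled-coil gene, had 25.6, 12.2 and 13.6 at 77.8 Mb. Of the 5, 3 lay within 10 Mb of Gm4665, where 17.9% of all members and 20.9% of the annotated genes of the chromosome lie, and the others lay more than 75 Mb from it. None of these 5 intervals overlapped a LacZ interval, but only 0.975% of all members did, so this sets them apart from no others.

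The covered promoters were searched for 3 motifs on both strands. GGGCGG was found in 4 of the 12 windows inside Gm4665 intervals (33.3%), in 3 of the 8 inside LacZ intervals (37.5%), and in 36.8% of all 1917 windows. GAGAGAGA was found in 1 of the 12 windows, in 0 of the 8 and in 3.23% of all windows. CACACACA was likewise found in 1 of the 12, in 0 of the 8 and in 4.43% of all windows. Matches to different motifs can overlap only at their edges. Among the 5 sequences shown, only that of Inka1 holds one of the 3. With 12 and 8 windows these shares are coarse, and a match is a description of the letters only.

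Chromosome 9 carried somewhat more intervals per Mb than most autosomes, and it did so in the LacZ list as well. The 2052 Gm4665 intervals made 16.9 per Mb on chromosome 9, against 15.6 per Mb on the other 18 autosomes, a ratio of 1.08 (95% Wilson interval 1.04 to 1.13, counting error only). The 527 LacZ intervals made 4.34 per Mb on chromosome 9, against 3.81 per Mb on the other autosomes, a ratio of 1.14 (1.04 to 1.24). Single autosomes ranged from 14.3 to 18.4 per Mb in the Gm4665 list, where chromosome 9 ranked 3 of 19 behind chromosomes 11 and 19. In the LacZ list they ranged from 3.34 to 4.40 per Mb, and chromosome 9 ranked 2 of 19. Each list is 1 set of intervals for all its replicates, so the densities have no test across samples. Library totals were not used here and the sequencing depth behind the folds is unknown.

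Fold on chromosome 9 was close to that on the other autosomes in every Gm4665 replicate. The median fold of the 2052 intervals was 11.4, 8.69 and 10.2 in replicates 1, 2 and 3, against 11.4, 8.5 and 10.3 on the other autosomes. That gives ratios of 1.00, 1.02 and 0.995 (mean 1.01 ± 0.0138, SD, n = 3). In the LacZ list the medians were 22.2, 8.11 and 10.8 on chromosome 9, against 23.0, 8.18 and 10.9 on the other autosomes, with ratios of 0.967, 0.991 and 0.983 (mean 0.980 ± 0.0122, SD, n = 3). The Gm4665 and LacZ ratios did not overlap, and their means differed by 0.0258. The exact two-sided permutation test gave p = 0.1, the smallest p that 3 against 3 allows, so the difference did not pass 0.05. With the mean of log2 folds in place of the median, the difference between the ratios was 0.0623 (exact permutation p = 0.1). Without the first 2 Mb of assembled sequence of every autosome, a setting chosen after seeing the data, the difference was 0.0150 (exact permutation p = 0.4).

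**Figure D1:**
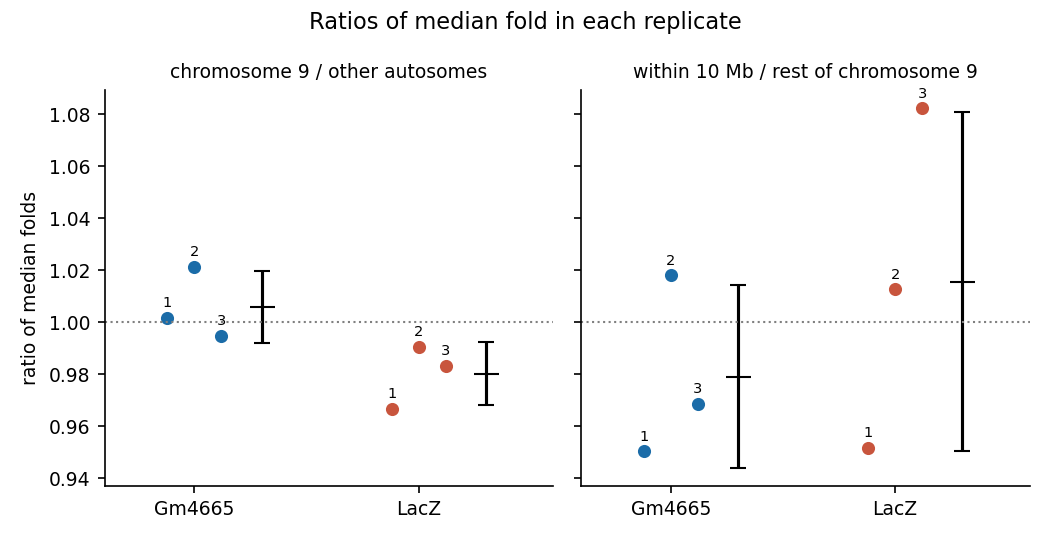
Ratio of median folds (vertical axis, no unit) in each replicate, for chromosome 9 over the other autosomes (left) and for intervals within 10 Mb of Gm4665 over the rest of chromosome 9 (right). Points are replicates 1 to 3 of the Gm4665 and LacZ lists, and bars give the mean and SD (n = 3); all ratios on the left lie between 0.967 and 1.02.

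Very strong intervals were about as common on chromosome 9 as elsewhere. An interval was counted as strong when its mean fold over the 3 replicates was in the top 10% of the autosomal intervals of its list, which took a mean fold of at least 25.1 in the Gm4665 list. Of the chromosome 9 members, 223 of 2052 (10.9%, 95% Wilson interval 9.59% to 12.3%) were strong, against 9.95% of intervals on the other autosomes. Single autosomes ranged from 8.72% to 11.5%. In the LacZ list 44 of 527 (8.35%, 6.28% to 11.0%) were strong on chromosome 9, against 10.1% on the other autosomes. The LacZ shares of single autosomes ranged from 7.02% to 12.6%, so neither chromosome 9 share lay outside the range of the others. Of the 100 strongest autosomal Gm4665 intervals outside the Gm4665 locus, 7 were on chromosome 9, which holds 5.46% of all such intervals.

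**Figure D2:**
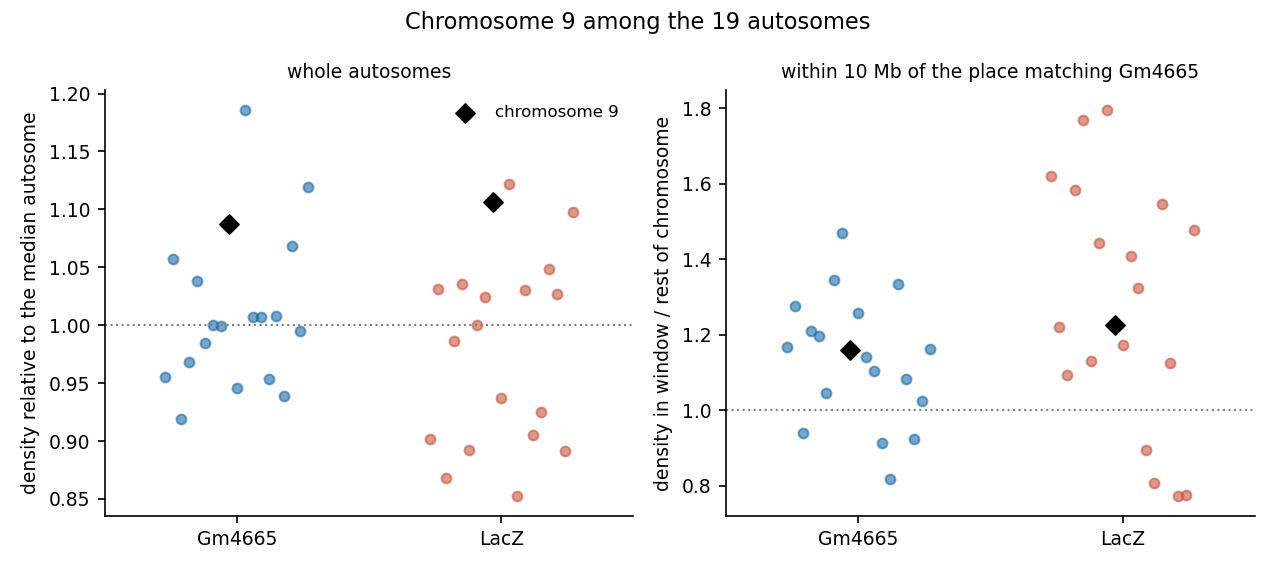
Left, intervals per Mb on each autosome divided by the median autosome of its list; right, intervals per Mb within 10 Mb of the place that is as far from the chromosome end as Gm4665 is, divided by the rest of that chromosome. Each circle is one autosome, and the black diamond is chromosome 9, which in neither panel lies outside the range of the others.

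By distance, the density of Gm4665 intervals did not peak beside the gene. From 0.1 to 10 Mb it was nevertheless above every farther range except that of 50 to 75 Mb. Within 0.1 Mb there were 3 Gm4665 intervals (16.5 per Mb) and 1 LacZ interval. From 0.1 to 1 Mb there were 34 Gm4665 intervals, or 18.9 per Mb, and 5 LacZ intervals, or 2.78 per Mb. Densities of Gm4665 intervals were 18.9 per Mb from 1 to 5 Mb and 19.4 per Mb from 5 to 10 Mb, then 16.4 from 10 to 25 Mb and 16.7 from 25 to 50 Mb. They reached 20 per Mb from 50 to 75 Mb, the highest of these ranges, and 14.0 per Mb beyond 75 Mb, the lowest. LacZ intervals followed with 5.50, 5.27, 4.80, 3.32, 5.28 and 3.79 per Mb over the same 6 ranges from 1 Mb outward. The highest Gm4665 density therefore lay 50 to 75 Mb from the gene and not beside it.

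**Figure D3:**
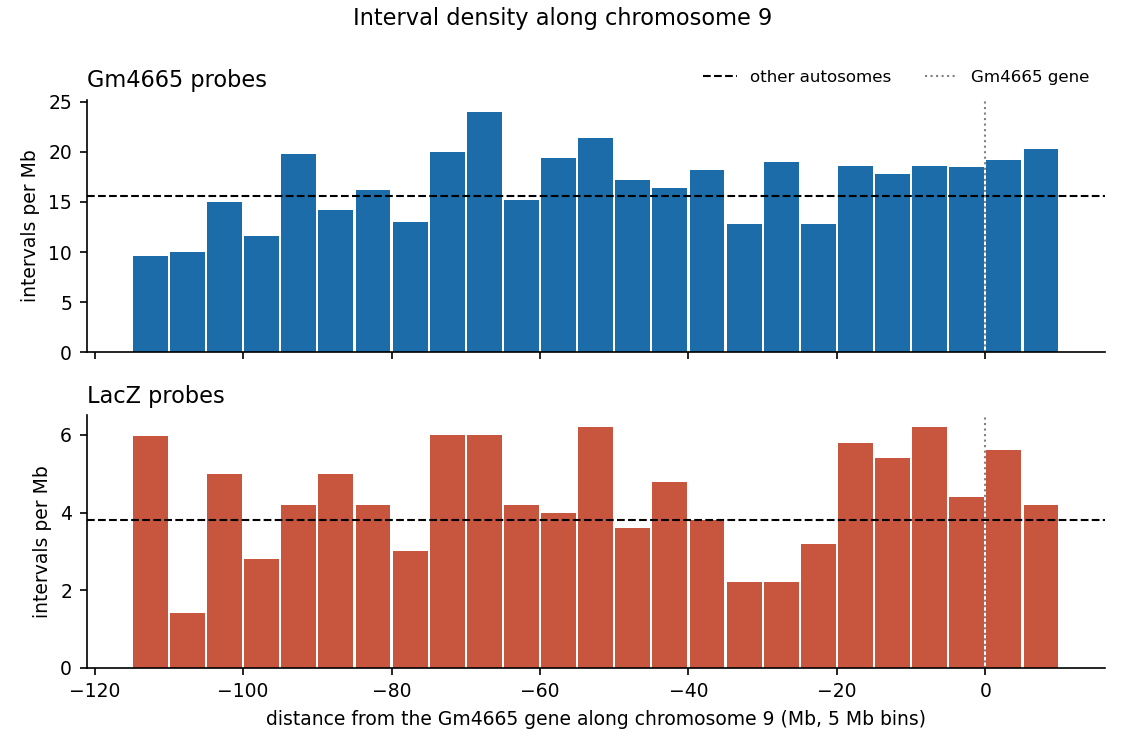
Intervals per Mb (vertical axis) in 5 Mb bins along chromosome 9, by distance from the Gm4665 gene in Mb (horizontal axis, negative before the gene), for the Gm4665 list (top) and the LacZ list (bottom). The dashed line is the density on the other autosomes, 15.6 and 3.81 per Mb; the tallest Gm4665 bar, 24 per Mb, lies 65 to 70 Mb before the gene.

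The nearest 10 Mb on each side held 368 of the 2052 members (17.9%, 95% Wilson interval 16.3% to 19.7%) in 15.9% of the sequence. This was 19.1 per Mb within 10 Mb, against 16.5 per Mb on the rest of the chromosome, a ratio of 1.16 (1.04 to 1.297). The LacZ list gave 99 of 527 (18.8%, 15.7% to 22.3%), or 5.14 per Mb within 10 Mb against 4.19 per Mb on the rest, a ratio of 1.23 (0.986 to 1.53). Annotated genes were also denser there, with 26.9 per Mb within 10 Mb against 19.3 per Mb beyond. The part that gene density plays in the interval density was not tested. Over 24 bins of 5 Mb along the chromosome, Spearman's rho was 0.59 between Gm4665 and LacZ densities and 0.50 between Gm4665 intervals and genes. Between LacZ intervals and genes it was 0.21. These bins share 1 chromosome and its mappable sequence, so the values are descriptions only.

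The side of the gene made little difference to the density. Before the gene, 185 members within 10 Mb made 18.5 per Mb, and after it 183 made 19.7 per Mb up to the chromosome end. Most autosomes were also denser toward that end. At the place as far from the end as Gm4665 is, the density within 10 Mb over the rest of the chromosome ranged from 0.818 to 1.47 on the other 18 autosomes, with a median of 1.15. On 9 of the 18 it was at least as high as on chromosome 9. For the LacZ list the range was 0.772 to 1.80 with a median of 1.27, and 9 of 18 were at least as high as chromosome 9.

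At a finer scale, 37 members lay within 1 Mb of the gene, or 18.7 per Mb, against 16.9 per Mb on the rest of the chromosome. Windows of 2 Mb tiled along the other autosomes held a median of 31 intervals, with a 95th percentile of 47, and 344 of 1132 (30.4%) held at least 37. LacZ intervals within 1 Mb numbered 6, against a median of 7 per window, and 66.8% of windows held at least that many. One other interval was as wide and as strong as that of the Gm4665 locus: it lay at Rai14, an actin-associated protein gene (chr15:10568392-10595320, 26929 bp, mean fold 129 ± 13.1, SD, n = 3). Around it 46 intervals lay within 1 Mb, or 23 per Mb, against 15.5 per Mb on the rest of chromosome 15. Within 10 Mb of it there were 14.2 per Mb, against 15.97 on the rest.

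Fold showed no trend with distance. The median of the mean fold was 10.8 within 0.1 Mb, 10.9 from 0.1 to 1 Mb, 9.96 from 1 to 5 Mb, 9.67 from 5 to 10 Mb, 9.82 from 10 to 25 Mb, 10.6 from 25 to 50 Mb, 9.92 from 50 to 75 Mb and 10.02 beyond 75 Mb. Across the 2052 intervals, which share 3 libraries, Spearman's rho between distance and mean fold was -0.013, and -0.022 across the 527 LacZ intervals. In single Gm4665 replicates it was -0.013, -0.028 and 0.0063. Wider members had higher folds, with a rho of 0.81, and the median width was 562 to 678.5 bp over the 7 distance ranges from 0.1 Mb outward.

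**Figure D4:**
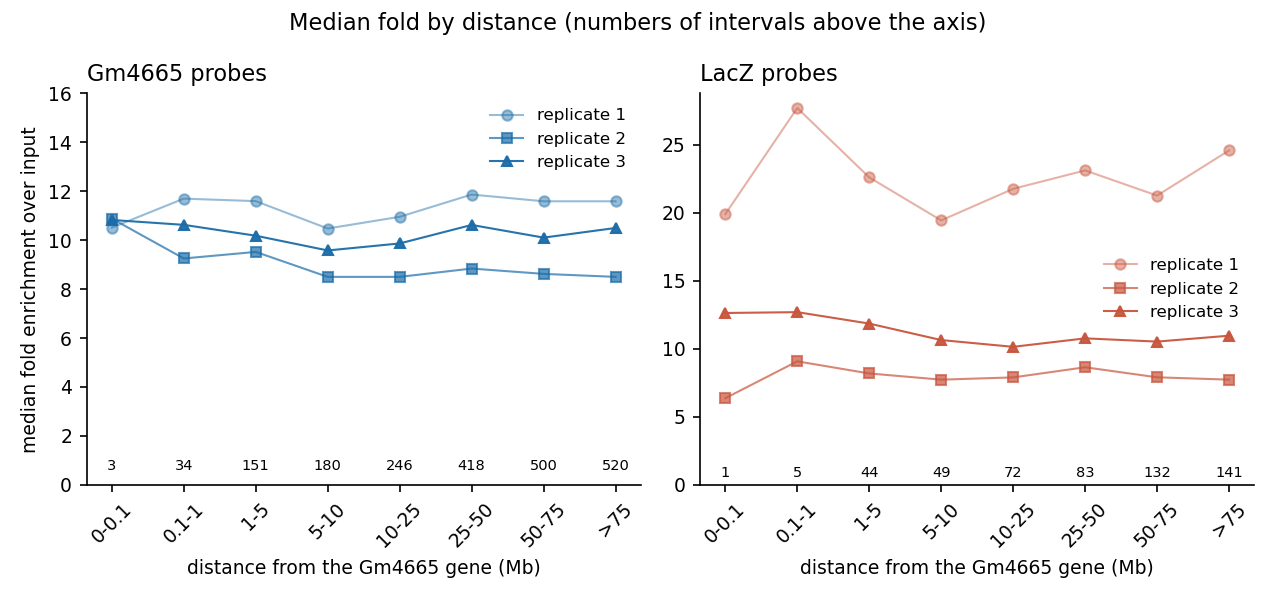
Median fold enrichment over input (vertical axes, separate scales) by distance from the Gm4665 gene in Mb, one line per replicate, for the Gm4665 list (left) and the LacZ list (right). Numbers above the axis count the intervals in each range; Gm4665 medians stay between 8.5 and 11.9 in all 3 replicates, and LacZ replicate 1 lies above the other LacZ replicates throughout.

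Within 10 Mb of Gm4665 the median fold was 11.0, 8.84 and 9.96 in replicates 1, 2 and 3, against 11.6, 8.69 and 10.3 on the rest of chromosome 9. The ratios were 0.9504, 1.02 and 0.969 (mean 0.979 ± 0.0350, SD, n = 3), on both sides of 1. In the LacZ list the medians were 21.3, 8.18 and 11.5 within 10 Mb, against 22.4, 8.08 and 10.7 beyond, with ratios of 0.952, 1.01 and 1.08 (mean 1.02 ± 0.0653, SD, n = 3). The probe sets overlapped, and the difference of -0.0365 (Gm4665 minus LacZ) gave an exact two-sided permutation p = 0.6. It turned to 0.00202 without replicate 3 and to 0.0208 with a limit of 20 Mb (exact permutation p = 1 and 0.5). Within 5 Mb the mean ratio was 1.05 for Gm4665 and 1.06 for LacZ.

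The neighbours of the gene had folds far under that of its own interval, and most were above the chromosome 9 median. Of the 10 nearest, 8 had a mean fold above the median over all members, which by definition splits the members evenly. With 10 intervals this count is coarse. The nearest, chr9:115155333-115155951, lay 22.5 kb before Gm4665 inside Osbpl10 and had folds of 10.5, 11.1 and 10.8. On the other side the nearest, chr9:115212362-115212629, was 268 bp wide, lay 26.3 kb past the gene and had folds of 5.62, 7.19 and 6.57. A further Osbpl10 interval 82.4 kb before the gene had 17.9, 10.9 and 12.3. The last of these lay above the chromosome 9 median in all 3 replicates, the nearest in replicates 2 and 3, and the 268 bp interval in none. The Gm4665 interval itself had 101.1 to 128.5. Over all 37 members within 1 Mb the median of the mean fold was 10.8, against 10.03 beyond. For the 6 LacZ intervals within 1 Mb it was 15.3, against 13.6 beyond.

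Farther out, the interval inside Stt3b, a gene for a catalytic subunit of the oligosaccharyltransferase, lay 101 kb past Gm4665 with folds of 11.8, 15.6 and 15.8. Near one end of the lncRNA gene 4930428G15Rik, 155 kb past, folds were 25.6, 13.8 and 21.4. The interval 221 kb past, 1556 bp from Gm9487, had 37.5, 31.0 and 19.9. It was the only one of the 10 nearest among the strong intervals (mean 29.5 ± 8.88, SD, n = 3). The next 3, at 246, 260 and 273 kb past, had mean folds of 20.1, 12.9 and 9.35 near or inside the predicted genes Gm5921 and Gm39447. The last of the 10, 278 kb before the gene at one end of Gpd1l (a glycerol-3-phosphate dehydrogenase-like protein), had 12.3, 9.28 and 17.2. Of the nearest 10, 3 lay before the gene and 7 after it. None of the nearest 10 overlapped a LacZ interval, beside 0.975% of all members, a share too low for 10 intervals to differ from. The nearest LacZ interval, with folds of 19.9, 6.36 and 12.6, was also inside Osbpl10. It lay 85.3 kb before the gene, close to the member at 82.4 kb.

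The strongest members within 1 Mb, chosen after their values were seen, stood 0.785 to 0.974 Mb before the gene. An interval inside the lncRNA gene 4930525D18Rik, chr9:114359437-114360749, had folds of 66.5, 57.1 and 49.0. One 2001 bp from Crtap, a gene of collagen prolyl hydroxylation, had 46.7, 37.8 and 39.0. One 10510 bp from Gm29825 had 47.1, 37.0 and 45.6. With the interval near Gm9487, these made 4 strong intervals of 37 within 1 Mb (10.8%), beside 9.95% on the other autosomes.

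**Figure D5:**
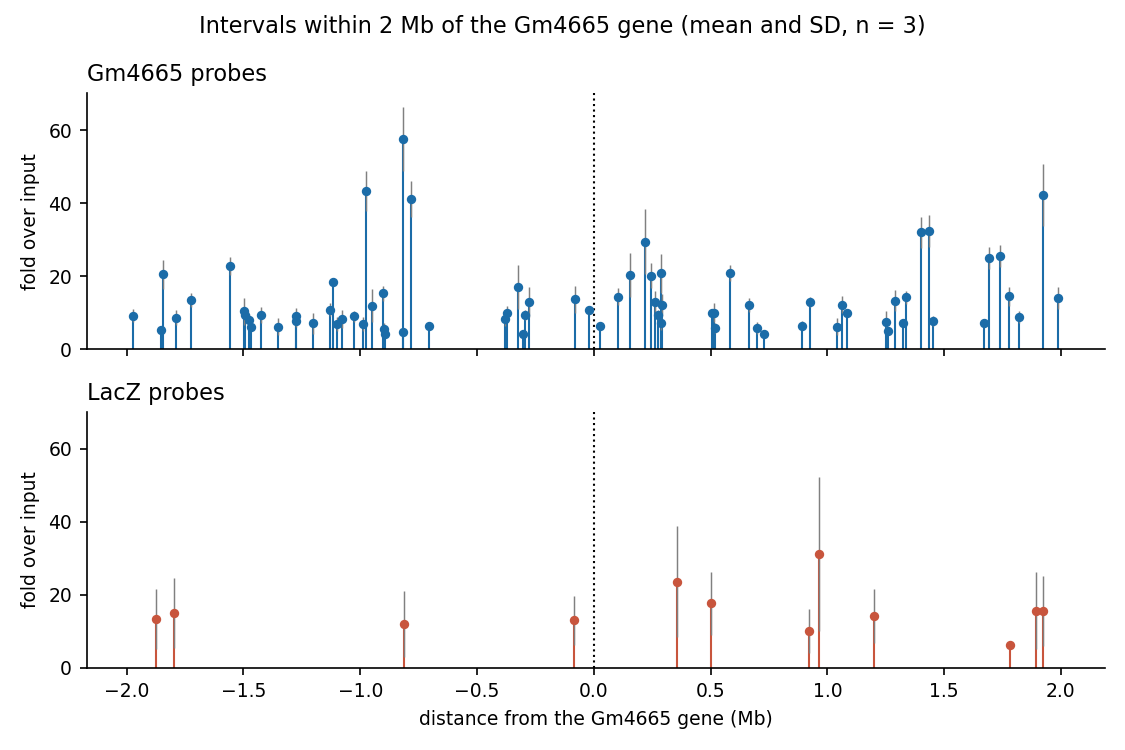
Mean fold over input (vertical axis, points, with SD over 3 replicates) of each interval within 2 Mb of the Gm4665 gene, by distance in Mb (horizontal axis, negative before the gene), for the Gm4665 list (top) and the LacZ list (bottom). The interval over the gene itself is left out; the tallest stem, 57.5, lies 0.818 Mb before the gene.

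The strongest chromosome 9 intervals were spread over the whole chromosome. The highest, chr9:73208802-73210701, lay inside the lncRNA gene Gm27211, 42.0 Mb from Gm4665, with folds of 86.9, 70.4 and 69.1. It kept the first place without any single replicate. It ranked 18 among 37616 autosomal intervals outside the Gm4665 locus, and the Gm4665 interval itself was 1.54 times as high. No member reached the mean fold of that interval.

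Among the other genes of the strongest 10, Nek11, which encodes a kinase of the DNA damage checkpoint, held an interval with folds of 77.7, 59.2 and 65.0 at 9.86 Mb from Gm4665. Eepd1, a gene for a nuclease of replication fork repair, had 92.4, 54.4 and 51.7 at 89.7 Mb, so replicate 1 stood well above the others there. Ctdspl, a phosphatase gene, had 65.1, 58.5 and 59.6 at 3.78 Mb. Zbtb16, which encodes PLZF, a transcription factor that maintains spermatogonial stem cells, had 65.6, 53.4 and 61.3 at 66.4 Mb. The lncRNA genes Gm38642 and 4930579C12Rik ranked between Eepd1 and Ctdspl, at 65.2 ± 8.28 for the first and 63.3 ± 4.54 for the second (mean fold, SD, n = 3). The other 3 of the strongest 10 lay in no annotated gene, with mean folds of 59.3 to 61.5.

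By distance, 3 of these 10 lay within 10 Mb of Gm4665, where 17.9% of all members lie, and 3 lay beyond 50 Mb, where 49.7% of all members lie. With 10 intervals these counts are coarse. When the ranking was repeated without replicate 1, 8 of the 10 remained in it, without replicate 2, 9, and without replicate 3, 8. No LacZ interval overlapped any of the 10, beside 0.975% of all members, a share too low for 10 intervals to differ from. The 3 widest members all lay after Gm4665, at 5.81, 4.44 and 3.78 Mb from it, and so within 10 Mb of the chromosome end. Of all members, 17.9% lie within 10 Mb of the gene, and a count of 3 is coarse. The widest were 3303 bp inside Ulk4 (mean fold 58.1 ± 7.85), 3276 bp inside Scn10a (57.3 ± 1.23) and 2764 bp in Ctdspl (61.1 ± 3.52, SD, n = 3 each). Ulk4 encodes a kinase-like protein and Scn10a a sodium channel of sensory neurons.

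Gene ends were not more frequent among chromosome 9 members than elsewhere, but in both lists the share within 10 Mb of Gm4665 was above that beyond. Of the members, 13.3% had their midpoint within 2 kb of an annotated gene end, against 13.1% on the other autosomes. A further 49.4% lay in the rest of a gene, against 44.2%, and 37.3% were intergenic, against 42.7%. The LacZ list had 15.4% at gene ends on chromosome 9, against 15.9% on the other autosomes. In the rest of a gene it had 47.8%, against 47.6%, and 36.8% were intergenic, against 36.4%. Within 10 Mb of Gm4665 18.8% of members were at gene ends, against 12.1% beyond. The 95% Wilson intervals were 15.1% to 23.1% and 10.6% to 13.8%. For LacZ the shares were 22.2% (22 of 99, 15.2% to 31.4%) within 10 Mb and 13.8% (10.8% to 17.4%) beyond. These LacZ Wilson intervals overlap, but they rest on 99 intervals within 10 Mb, against 368 in the Gm4665 list. Whether the lists differ in these shares was not tested. Annotated genes were also denser within 10 Mb, at 26.9 per Mb against 19.3 beyond, and their part was not tested.

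Few members coincided with a LacZ interval. The overlap was 20 of 2052 (0.975%, 95% Wilson interval 0.632% to 1.5007%), against 0.908% on the other autosomes. Of the chromosome 9 LacZ intervals, 20 of 527 (3.795%) overlapped a Gm4665 interval, against 3.73% on the other autosomes. Within 10 Mb of the gene 4 members did, and all 4 lay after it. The shared intervals named here were chosen after their values were seen. The strongest was the wide one in Scn10a. Next were an intergenic one 24.6 Mb before the gene (44.2 ± 13.8), one in the transferrin gene Trf (42.3 ± 13.0) and one in Rbms3, an RNA-binding protein gene 1.92 Mb past Gm4665 (42.1 ± 8.503; SD, n = 3 each).

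The genes with the most members were long, and in 3 of the first 4 the density was near the chromosome's 1.69 members per 100 kb. Thsd4, a gene for a matrix protein that binds fibrillin, held 20 over 555 kb, or 3.58 per 100 kb. The neuronal adhesion genes Cntn5, Ntm and Opcml tied with 19 each, over 1271, 969 and 1135 kb, or 1.49, 1.95 and 1.67 per 100 kb. LacZ intervals in these genes numbered 5 in Thsd4, 2 in Cntn5, 10 in Ntm and 5 in Opcml. The median gap between neighbouring Gm4665 intervals, with that over the Gm4665 gene kept, was 38.3 kb on chromosome 9. On the other autosomes it was 41.4 kb. The longest gap was 505 kb, against 1917 kb on the other autosomes. The second value is the highest of far more gaps, so the longest gaps are not alike in kind.

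A list of 49 chromosome 9 genes known from male germ cells or ciliated sperm structures was also counted, and all 49 were found in the annotation. An interval lay in the gene or within 2 kb of it for 22 (44.9%), beside 40.8% of the 1201 protein-coding genes of the chromosome. LacZ intervals marked 11 (22.4%), beside 17.7%. The listed genes were longer, with a median of 27.1 kb against 19.2 kb over all coding genes. Within the list the 22 marked genes had a median length of 54.9 kb and the other 27 of 18.4 kb. The part of gene length in these counts was not tested. The highest interval per marked gene had a median mean fold of 14.6, against 13.0 over all marked coding genes.

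Zbtb16 led this list with the interval given above. Ulk4 followed with folds of 67.1, 52.4 and 54.9. Iqch, a calmodulin-binding IQ-motif gene of sperm, had 30.05, 22.3 and 34.95, and Jam3, an adhesion gene needed for spermatid polarity, had 31.0, 26.7 and 29.2 at one gene end. Dpy19l2, which is needed to anchor the acrosome, had 34.8, 15.8 and 31.7. Their intervals were the 5 of the list among the strong ones. The 5 genes lie 5.78 to 90.5 Mb from Gm4665.

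The next 5 were weaker. Stag1, a cohesin subunit gene, had 29.0, 20.7 and 24.5, just under the limit for a strong interval. Prss43, a testis serine protease gene 4.35 Mb from Gm4665, had 27.6, 16.6 and 7.92, with a wide spread between replicates. Ctnnb1, which encodes beta-catenin, had 20.6, 17.1 and 12.2. Iqcf3, an IQ-motif gene, averaged 16.5 ± 2.82, and Rbm5, a splicing factor gene of spermatids, 15.4 ± 4.72 (fold, SD, n = 3). Among those with no listed interval were the meiotic genes Iho1 and Tex12, and the flagellar kinesin gene Kif9. That says only that the list held none within 2 kb.

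The LacZ intervals gave the control picture of the same chromosome. The strongest also lay in Zbtb16, with folds of 76.0, 19.003 and 39.3, and stood 52.1 kb from the Gm4665 interval in that gene. Coro2b (an actin-binding coronin) had 64.7, 31.4 and 33.2, and Dpp8 (a peptidase) had 69.8, 24.96 and 34.5. The lncRNA gene Gm31432 had 71.8, 16.7 and 40.3, and Atp2c1 (a Golgi calcium pump) had 65.3, 18.7 and 39.8. Replicate 1 was highest at all 5, and it exceeded replicate 2 in 97.0% of the LacZ intervals of chromosome 9. Among Gm4665 members replicate 1 exceeded replicate 2 in 81.6%, and the median coefficient of variation over replicates was 21.8%, against 53.8% in the LacZ list.

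The start of the assembled chromosome stood apart. Of the 2052 members, 2 had a mean fold below 3, and both overlapped LacZ intervals: chr9:3000324-3000608 (1.46 ± 0.134) and chr9:35305269-35305572 (1.90 ± 0.344; SD, n = 3 each). The LacZ list held 10 intervals with mean folds of 1.63 to 2.49 between 3000273 and 3035200. These were all of its chromosome 9 intervals below 3, beside 3 on the other 18 autosomes together. In the bin nearest the chromosome start, more than 110 Mb from the gene, Gm4665 intervals had a median mean fold of 11.0 and LacZ intervals one of 2.19.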

How the data were processed

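The peak lists of both probe sets were used; peaks were called with MACS2, per the file names. Each fold is a linear ratio over input for 1 replicate, per the file headers; the aligner, the settings and how the authors joined replicates into 1 set of intervals were not stated. The deposited pileup signal was not used. Per the submitters' processing notes, the build is mm10. Coordinates are as deposited.

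Rows repeating an interval (63 Gm4665 and 7 LacZ rows on chromosome 9) were joined, keeping the highest fold of each replicate. Distance ran from the nearest edge of the interval to the gene. Density used sequence from 3 Mb to the last annotated gene end or interval. Genes and promoter sequences came from RefSeq (GRCm38.p6). The lists were normalized separately, so only ratios within a list were compared, by exact two-sided permutation over replicates (scipy 1.17.1) with a block on replicate number as an alternative. Intervals were not treated as replicates, and Wilson intervals cover counting error only. The procedure was tested on simulated data. Alternatives changed the distance limit, repeats, fold filter, overlap rule, windows, list length and replicates.

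Named intervals follow a rule: the 10 nearest, 10 strongest and 3 widest members, the genes with the most members, the 5 strongest LacZ intervals, the 10 highest genes of the germ cell list, and 5 promoters. The strongest members within 1 Mb, those shared with LacZ, the LacZ intervals close to named members, the low-fold intervals and the Rai14 interval fall outside it. They were chosen after their values were seen. Members, lists and rules were chosen with earlier results of these data known.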

Additional observations from a re-analysis of the deposited data

How the results depend on the processing

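The ratio of interval density on chromosome 9 over the other autosomes stayed above 1 under every alternative run, at 1.07 to 1.11 for Gm4665 and 1.11 to 1.14 for LacZ. The ratio of density near the gene over the rest was 1.05 to 1.16 for Gm4665 over limits of 1, 5, 10 and 20 Mb and the other alternatives. Its Wilson interval included 1 with the 5 Mb limit (1.13, 0.970 to 1.31), with the 1 Mb limit (1.11, 0.801 to 1.53) and with the list shortened to the LacZ list's length (1.05, 0.833 to 1.33). For LacZ the interval excluded 1 with a limit of 20 Mb (1.31, 1.09 to 1.58). The LacZ ratio was 0.694 with a limit of 1 Mb, a limit chosen after seeing the data, where it rests on 6 intervals. The chromosome 9 fold difference between probe sets stayed positive (0.0150 to 0.0623, the highest with the mean of log2 folds, exact permutation p of 0.1 to 0.4). Without each replicate in turn it was 0.0212 to 0.0329, each with exact permutation p = 0.333, the smallest p that the remaining replicates allow. The difference for folds near the gene had exact p of 0.5 to 1. It was -0.0574 to 0.00202 without each replicate in turn, and it reversed with a limit of 20 Mb (0.0208) and without replicate 3 (0.00202); the cause was not tested. The share at gene ends was 7.12% with 1 kb windows, 26.9% with 5 kb windows and 6.82% with protein-coding genes only, against 7.11%, 26.4% and 6.56% on the other autosomes, since other bases or genes were searched. The share overlapping LacZ was 2.00% when gaps of up to 1 kb counted, against 1.80% on the other autosomes. The share of strong intervals was 11.0% to 11.4% without each replicate in turn. With the replicate number as a block, exact p was 0.25 for the chromosome 9 fold difference (0.0258) and 0.75 for that near the gene (-0.0365); the smallest p it allows is 0.25. Over 343 intervals shared by the lists, the deviations of same-numbered replicates had r = -0.038, -0.028 and -0.00095. Replicates with different numbers had r of -0.155 to 0.187. Whether same-numbered replicates share an animal or a batch is not stated, and these values cannot decide it. Interval positions are common to all replicates of a list, so densities have no value without one of them. Depth is unknown.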
